A study of Mus musculus with 80 samples.

Results

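In the mouse embryonic stem cell (ESC) line E14, 1491 stretches of 500 bp on the autosomes kept most of their DNA methylation when the cells were moved from serum medium to 2i. They were chosen from the E14 libraries of reduced representation bisulfite sequencing (RRBS), an assay that reads methylation at the ends of restriction fragments rich in CpG. The autosomes were divided into tiles of 500 bp. A tile was used where each of the 12 E14 libraries held 20 or more methylation calls at 3 or more positions, which left 55777 tiles. Of these, 21609 had a methylation level, the percent of methylated calls averaged over replicates, of 40% or more in serum. A tile was called resistant where its level at 168 h of 2i was at least 80% of its serum level, which held for 6.90% of the 21609. The remaining 20118 are called other methylated tiles below. The rule thus used the serum and 168 h levels of E14, which are given as a description without a test.

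DNA methylation of CpG sites is copied to the new strand after replication by DNMT1, which UHRF1 brings to replication forks by binding half-methylated CpG and histone H3 methylated at lysine 9. TET enzymes oxidize methylated cytosine, and the DNMT3 enzymes add methylation anew. In 2i, ESCs lose methylation over most of the genome, while imprinted regions and some families of retroviral repeats are known to keep part of it. A mark on histone H3, dimethylation of lysine 9 (H3K9me2), is common over silent chromatin.

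RRBS followed 5 lines. E14 is a Wild-type line and was sampled in serum and after 24, 48, 72, 96 and 168 h of 2i with 2 samples each. UHRF1 WT (Wild-type) and UHRF1 KO (genotype UHRF1-/-), both of background strain E14, had the same times with 2 samples each, except UHRF1 WT serum with 1 usable sample. TET WT (Wild-type) and TET TKO (genotype TET1/2/3-/-), of background strain C57/129/FVB, were sampled in serum and at 48, 96 and 168 h with 2 samples each, except TET WT at 168 h with 1. Serum medium held fetal calf serum and LIF, and 2i was serum-free N2B27 with LIF, the MEK inhibitor PD0325901 and the GSK3 inhibitor CHIR99021. By the study's methods, Uhrf1 was deleted from a floxed line by a tamoxifen-inducible Cre, begun 48 h before the experiment, so the serum samples of UHRF1 KO were taken after deletion had begun. Replicates are separate samples by their labels. No label says that they came from separate cultures, so p-values measure the spread between these samples, which may be technical. E14 in serum and 2i was also read by bisulfite sequencing of H3K9me2-bound DNA and of the unselected whole-genome input (ChIP-BS), 2 samples each. The labels of these libraries give 2i with no time, and the study describes it as long-term 2i without a stated length, which need not match the RRBS course.

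E14 RRBS libraries held 9581412 to 30654219 calls. The second 168 h library was the deepest, on 1144221 positions, the fewest of the 12. Without it the rule gave 1597 tiles, and without the other 168 h library 1611. RRBS calls per position were alike in both classes of tiles, with medians of 14.2 in resistant and 13.8 in other methylated tiles. Calls per CpG site in a whole-genome input library were higher in resistant tiles. Their median was 0.306 in resistant and 0.227 in other methylated tiles, and 10% of tiles lay above 1.25 and 0.771. Whether this reflects sequence present in more copies was not tested. In the E14 RNA-seq libraries, all 8 ESC markers on the list, among them Pou5f1 and Nanog, lay between 5.16 and 11.3 on the authors' log2 scale, above the upper quartile of all genes (2.51). Of 8 fibroblast markers, which would mark feeder cells, Col1a2, Col3a1, Lum and Dcn lay below -0.47 in every library. Thy1 lay between 0.16 and 1.07, Pdgfrb between -0.76 and 1.76, Col1a1 between 1.34 and 2.80 and Vim between 4.06 and 5.89, so Vim and, in part, Col1a1 passed that quartile. RNA-seq covered E14 only, so the deletions in the other lines are taken from their labels.

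Among the resistant tiles the median level was 92.3% in serum and 78.7% at 168 h, where other methylated tiles had 81.4% and 35.2%. The share of serum methylation kept at 168 h formed 1 broad peak over all methylated tiles. It held 3824 tiles at 50% to 60%, 1551 at 70% to 80%, 1036 at 80% to 90% and 432 at 90% to 100%. The resistant tiles are therefore its upper end and no separate group. Only 23 of them were as high at 168 h as in serum or higher. In 1083 of the 1491 (72.6%) each 168 h sample alone met the rule, and in 1273 (85.4%) both 168 h samples lay below both serum samples. Just inside the threshold were chr6:66554001-66554500, which kept 80.0007%, chr3:37498501-37499000, which kept 80.0246%, and chr3:98398001-98398500, which kept 80.0267%. Just outside were chr10:115876501-115877000 with 79.9911%, chr5:91277501-91278000 with 79.9816% and chr3:16867001-16867500 with 79.9694%. Coordinates are of build NCBIM37, the build of the files. Gene and repeat annotation of this build was not used here.

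**Figure D1:**
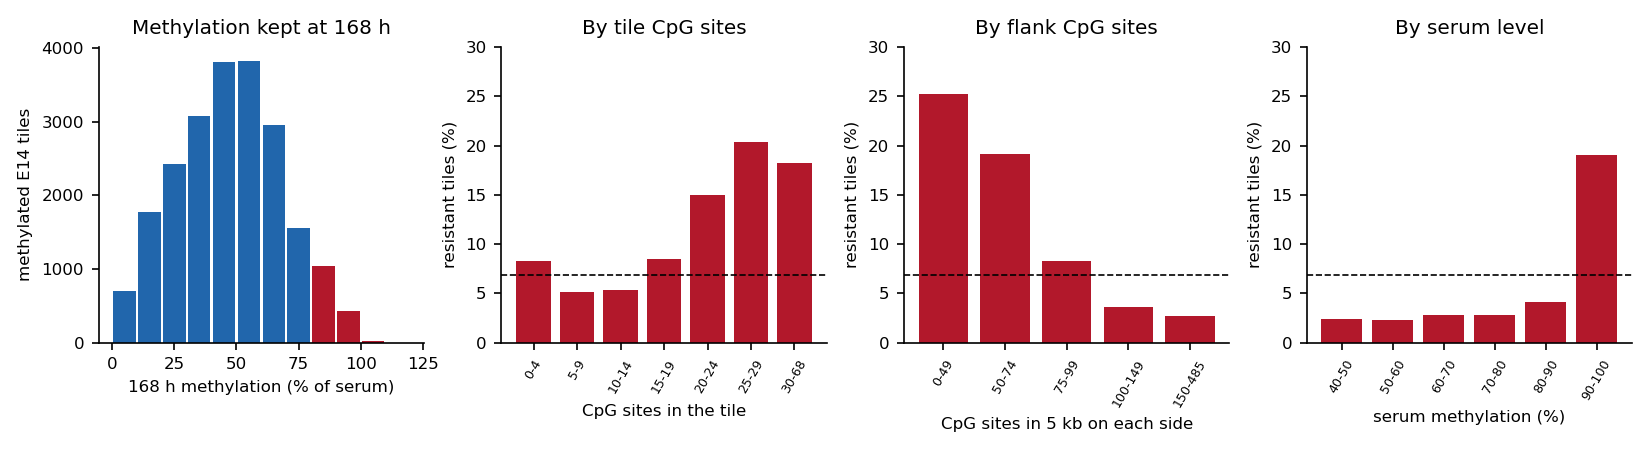
The first panel shows how many methylated E14 tiles kept each share of their serum methylation at 168 h of 2i (red, 80% or more). The other panels show the percent of methylated tiles that were resistant by the number of CpG sites in the tile, in the 5 kb on each side, and by serum level, with the share of all methylated tiles (6.90%) as a dashed line. The resistant share falls from 25.3% to 2.70% with rising CpG number in the flanks, and rises to 20.3% with CpG number in the tile.

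Resistant tiles held more CpG sites than other methylated tiles and lay in sparser surroundings. A CpG site was counted wherever any bisulfite library called it. Resistant tiles held a median of 14 CpG sites (interquartile range 10 to 18), other methylated tiles 12 (9 to 15) and all 55777 E14 tiles, most of them outside the methylated set, 19 (12 to 33). The 5 kb on each side together held 80 sites (60 to 107) around resistant and 113 (91 to 140) around other methylated tiles. The longest stretch without a called CpG within 10 kb had a median of 1159 bp around resistant tiles and 802 bp around the others. A stretch of 2 kb or more lay near 193 resistant tiles (12.9%) and near 2.54% of the others. Such a stretch may hold few CpG sites or sequence that reads could not be placed in, which cannot be told apart.

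The 2 measures of density ran in opposite directions. Of methylated tiles with up to 4 CpG sites 8.26% were resistant, of those with 5 to 9 sites 5.16%, of those with 25 to 29 sites 20.3% and of those with 30 or more 18.2%, so the rise was not steady. The median share kept differed little between these classes (46.7% to 51.4%). Where the flanks held under 50 sites, 25.3% were resistant, and where they held 150 or more, 2.70%. Tiles with 15 or more sites and under 75 in their flanks were resistant in 227 of 872 cases (26.0%). Tiles with under 15 sites and 75 or more in their flanks were resistant in 409 of 13180 (3.10%). These are counts over tiles that share libraries and carry no test.

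Serum level moved with resistance as well. Of tiles at 40% to 50% in serum 2.40% were resistant, and of those at 90% to 100% 19.1%. Among the tiles at 90% or more in serum, 957 were resistant and 4059 were not. In that class the medians were still 14 against 11 CpG sites in the tile and 83 against 108 in the flanks. There 44.8% were resistant with under 50 flanking sites, and 11.2% with 150 or more.

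The CpG count depends on what is counted. When sites called in any E14 RRBS library alone were used, resistant tiles held a median of 5 and other methylated tiles 6. The order of the classes was thus opposite to that over all called sites.

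The tiles with the most CpG sites were chr11:11926001-11926500 with 68, chr10:12810501-12811000 with 50 and chr7:6084001-6084500 with 41. In the first of these, E14 serum samples read 35.8% and 48.4%, and the 168 h samples 35.4% and 33.4%. The level stayed near 40% at each time between, from 37.4% to 46.8% as means of 2 samples. Such a level in the middle of the scale was rare among the resistant tiles, of which 10% lay below 69.0% in serum. The tiles with the fewest sites were chr3:154016501-154017000 and chr6:59837501-59838000 with 2 and chr1:11843501-11844000 with 3.

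Resistant tiles lay on every autosome. They made up 13.0% of the methylated tiles on chromosome 3 (118 of 906), 11.7% on chromosome 13 and 10.97% on chromosome 6, but 3.34% on chromosome 11 (55 of 1647) and 2.32% on chromosome 19 (16 of 689). The chromosomes with high shares had sparser flanks over all methylated tiles, with a median of 100 CpG sites on chromosome 3 and 121 on chromosome 19. Within 5 Mb of the first or last called position of a chromosome lay 199 resistant tiles (13.3%) and 9.86% of the other methylated tiles.

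They clustered. Within 10 kb of a resistant tile, 258 of 525 methylated neighbours (49.1%, exact binomial 95% interval 44.8% to 53.5%) were resistant too, against 267 of 16785 (1.59%) around other methylated tiles. The interval covers counting error only, and each close pair is counted from both sides. The share was 59.3% at up to 500 bp, 57.8% at 500 bp to 1 kb, 45.9% at 1 to 2 kb and 60.4% at 2 to 5 kb. Tiles side by side can share a restriction fragment, whose part in this was not tested. The share fell to 29.5% at 5 to 10 kb and 22.3% at 10 to 20 kb, and was still 10.5% at 500 kb to 1 Mb, where 3.13% of the neighbours of other methylated tiles were resistant.

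**Figure D2:**
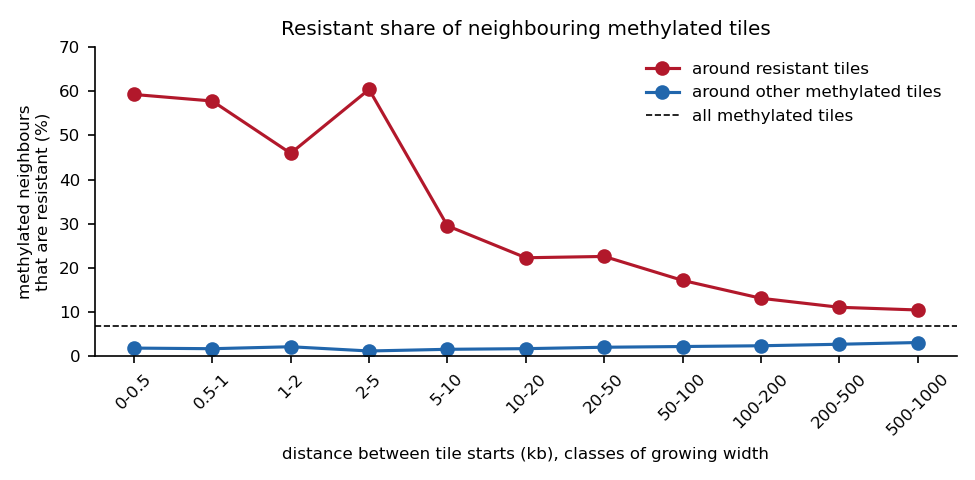
The vertical axis gives the percent of methylated neighbours that were resistant, and the horizontal axis the distance between tile starts in kb, in classes of growing width. Around resistant tiles (red) the share is 45.9% to 60.4% up to 5 kb and then falls, while around other methylated tiles (blue) it stays at 3.13% or less. The dashed line is the share among all methylated tiles.

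Of the 1491 resistant tiles, 367 had any methylated tile of the set within 10 kb, and 215 of these 367 had a resistant one. With gaps of under 10 kb, 98 runs of 2 or more resistant tiles held 212 tiles, and 1279 tiles stood alone, which includes the tiles with no methylated neighbour in the set. The longest runs had 4 tiles. The first lay at chr12:20236001-20240500, where 4 of 6 methylated tiles were resistant, and the other at chr12:5058001-5063500, where all 4 were. Of the 12 runs of 3, the shortest was chr3:61962001-61963500. In the first run, chr12:20240001-20240500 read 93.5% and 92.0% in serum on over 900 calls each, and 80.6% and 82.0% at 168 h. In the second run, chr12:5061501-5062000 read 93.3% and 96.1% in serum and 77.1% and 79.3% at 168 h. These runs went against the general pattern in 1 respect, since their flanks held 195 to 258 CpG sites in the runs on chromosome 12. In both tiles each 168 h sample lay below each serum sample.

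A position with more than 20 calls in a ChIP-BS library, far above the usual depth of those libraries, marks sequence that may be present in more copies than in the genome build. Such positions lay in 4 of the 1491 resistant tiles (0.268%), in 7 of the 20118 other methylated tiles (0.0348%) and in 12 of all 55777 tiles (0.0215%). The first was at chr1:85144001-85144500 and 3 were between 98502501 and 98507500 on chromosome 2. The deepest, chr2:98502501-98503000, held a mean of 3282 RRBS calls per E14 sample. Whether its calls come from 1 or many copies was not tested.

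Over the time course, resistant tiles in E14 changed little until 48 h. The mean over the 1491 tiles was 87.4% and 88.0% in the 2 serum samples. After 24 h it was 86.8% and 86.1%, and after 48 h 85.4% and 85.5%. The 72 h samples had 79.7% and 79.5%, the 96 h samples 81.9% and 81.8%, and the 168 h samples 76.8% and 76.6%. The replicates thus differed by under 1 point at each time, and the 72 h samples lay below those of 96 h. Other methylated tiles had means of 76.4% in serum, 79.2% and 68.3% after 24 and 48 h, 56.3% and 55.5% after 72 and 96 h, and 35.3% in the last samples. From 48 to 72 h, 82.6% of the resistant tiles fell in value, and from 72 to 96 h 36.7% did. Of other methylated tiles 90.4% and 51.7% fell in these steps.

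The step from 24 to 96 h uses E14 samples that the rule did not use. It was tested per tile with a quasi-binomial logistic fit, with dispersions moderated as in limma and Benjamini-Hochberg adjustment over all 55777 tiles. A tile was called at an adjusted p under 0.05 with a difference of 20 points or more. Of the resistant tiles 26 (1.74%) fell and 2 rose, while over all tiles 24.4% fell and 0.00538% rose. Of the other methylated tiles 53.4% fell. Without the minimum difference 143 resistant tiles (9.59%) and 38.3% of all tiles fell. With 50 or more calls per tile 0 of 401 resistant tiles and 13.2% of all tiles did. The median difference was -4.33 points in resistant, -22.0 in other methylated and -4.53 in all tiles, whose median level in serum was 7.98%. Among resistant tiles 77.2% had the lower value at 96 h, and among other methylated tiles 98.2%. This comparison is in the same line and the same time course as the rule, so it is not independent of it.

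**Figure D3:**
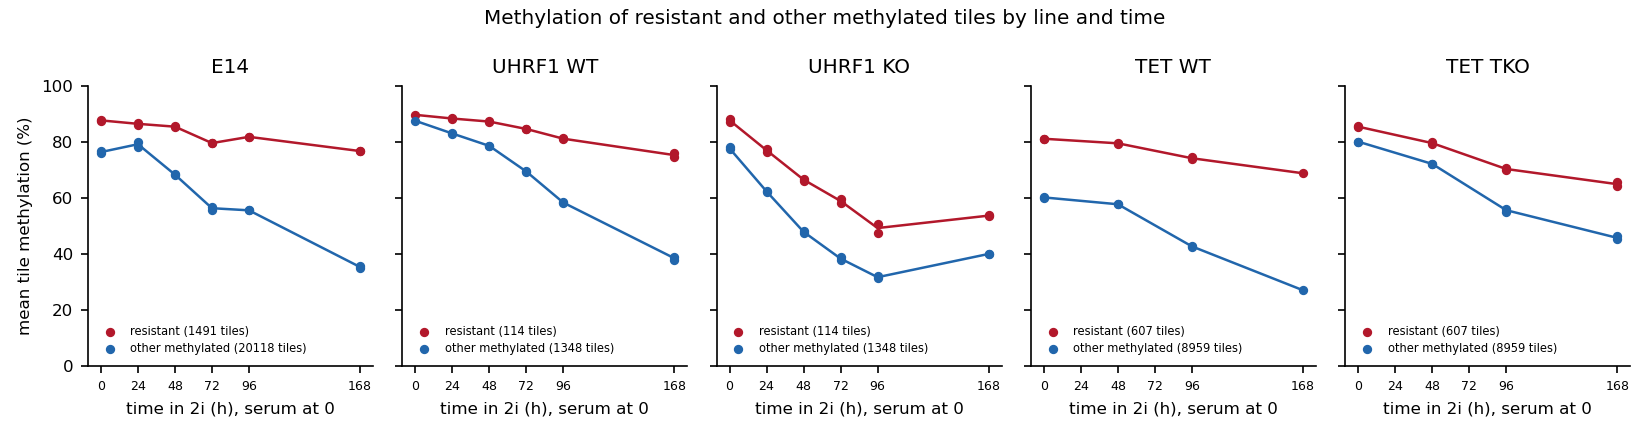
Mean methylation of tiles in percent against time in 2i in hours, with serum at 0, in 5 lines. Points are single samples, lines join the means, red is resistant and blue other methylated tiles as defined in E14, and the number of tiles covered in all samples of the line pair stands in each panel. Resistant tiles lie above the others in every line and time, and fall to 49.2% by 96 h in UHRF1 KO.

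The same tiles kept methylation in the other wild-type lines. Of the 1491, 457 were covered by the same call minimum in every UHRF1 WT sample and 1200 in every TET WT sample. Of those with 40% or more in the line's own serum, 291 of 451 (64.5%) kept 80% or more at 168 h in UHRF1 WT, against 2.69% of other methylated tiles. In TET WT this was 779 of 1175 (66.3%) against 4.403%. Both lines have 1 group of 1 sample in this share (UHRF1 WT serum, TET WT 168 h), so it has no replicate check. Tiles with a strong loss were few, as 11 in UHRF1 WT and 25 in TET WT kept under 50%.

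Replicated groups of these lines were tested per tile. From 24 to 168 h in UHRF1 WT, 19 of 114 resistant tiles covered in all 23 UHRF1 samples fell (16.7%) and 9.43% of all 22700 tiles did, whose median difference was -0.38 points. Of other methylated tiles 95.3% fell. The medians were -11.03 points in resistant and -43.9 in other methylated tiles. With no minimum difference 59 of the 114 (51.8%) and 21.1% of all tiles were called, so 40 more resistant tiles had a loss of under 20 points. From serum to 96 h in TET WT, 9 of 607 resistant tiles fell (1.48%), against 8.22% of all tiles and 33.5% of other methylated ones. The medians were -6.58 points in resistant and -16.9 in other methylated tiles. Without the minimum difference 83 resistant tiles (13.7%) and 17.7% of all tiles were called. At an unadjusted p under 0.05 in this quasi-binomial fit, 184 (30.3%) and 29.9% of all tiles were lower. A quasi-binomial fit of the 4 TET WT samples alone called 0 of 1297 resistant tiles and 0 of all 64515, so its count says nothing of resistant tiles. At an unadjusted p under 0.05, 22.1% of resistant and 31.7% of all tiles were lower in it (286 resistant tiles). Limma called 3 of the 607 and 2.25% of all tiles.

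Much of this methylation was absent from UHRF1 KO cells in 2i. Their mean over the 114 tiles was 88.3% and 87.1% in serum, 77.6% and 76.4% after 24 h, and 66.1% and 66.9% after 48 h. The 72 h samples had 58.3% and 59.5%, the 96 h samples 50.8% and 47.6%, and the 168 h samples 53.7% and 53.6%. In UHRF1 WT it was 89.7% in the 1 serum sample, 81.0% and 81.3% at 96 h and 76.0% and 74.6% at 168 h. At each time from 24 h on, both KO samples lay below both WT samples of that time. Of tiles covered in all KO samples with 40% or more in KO serum, 3 of 128 (2.34%) kept 80% at 168 h, where 1.17% of other methylated tiles did.

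Tested per tile, 58 of 114 resistant tiles (50.9%) were lower in KO than in WT at 48 h. This held for 105 (92.1%) in the 96 h samples and 36 (31.6%) in the 168 h samples, and none was called higher at any of these times. Over all tiles 6.93%, 5.19% and 0.317% were called lower and 0.0264%, 0.0308% and 0.427% higher. Of the 1348 other methylated tiles in the same fit, 80.9%, 71.1% and 1.93% were lower. The median difference between KO and WT in resistant tiles was -20.7 points at the first of these times, -32.5 at the second and -21.7 at the last. In other methylated tiles it was -31.6, -27.5 and 1.75. At 168 h the WT cells had themselves lost methylation at other tiles, which then stood at 38.4% in WT and 39.9% in KO. Resistant tiles stood at 75.3% and 53.6%. The rule chose tiles that stayed high at 168 h in wild-type E14, the background strain of both lines. At 96 h the WT mean was likewise 81.2% in resistant and 58.3% in other methylated tiles. The gaps between classes in the KO and WT difference are thus not independent of the rule, at 168 h or earlier. Limma on log2 ratios of methylated to unmethylated calls called fewer tiles, with 37, 15 and 10 of 114 and 4.04%, 0.203% and 0.0529% of all tiles. At 168 h the count was 9 without the first WT sample (0.0617% of all tiles) and 11 without the second KO sample (0.0749%). When a fit used only the 4 samples compared, so that it held more tiles and 2 residual degrees of freedom, it called 1 of 327 resistant tiles at 48 h and 0 of 252 at 168 h, where 203 (62.1%) and 110 (43.7%) were lower at an unadjusted p under 0.05. Over all tiles these fits called 0.00661% and 0%, with 24.9% and 2.93% lower at the unadjusted p.

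Serum level differed between the classes, so the comparison was also read among tiles with 90% or more in E14 serum. There 76 resistant tiles had a median difference of -20.4, -32.9 and -22.7 points at these times, and 155 other methylated tiles -28.2, -35.1 and -9.17. In that class KO cells at 96 h kept a mean of 52.5% in resistant and 42.1% in other tiles. The level in resistant tiles was thus the higher also in UHRF1 KO, and this difference between classes carries no test.

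**Figure D4:**
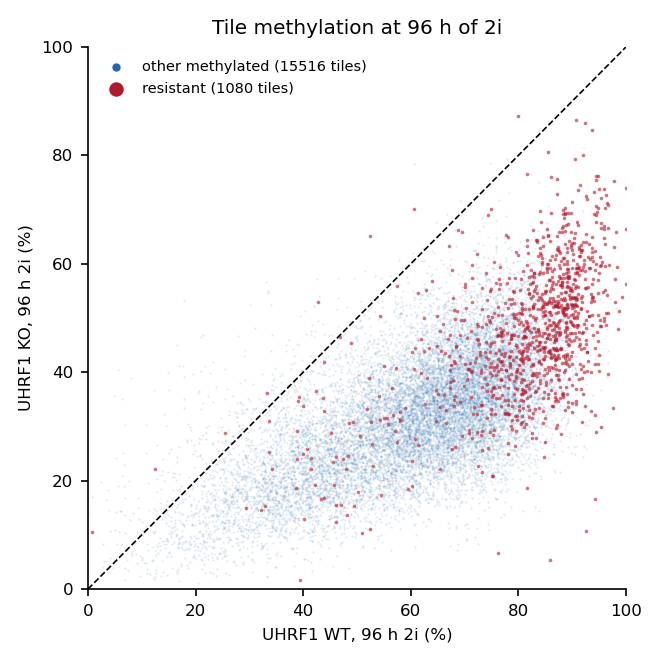
Each point is a tile methylated in E14 serum, with its level at 96 h of 2i in UHRF1 WT on the horizontal and in UHRF1 KO on the vertical axis, in percent and as means of 2 samples. All tiles covered in these 4 samples are drawn, 1080 resistant (red) and 15516 other methylated (blue), and the dashed line marks equal levels. Most resistant tiles lie at the right, under the line, with a median difference of -34.6 points. That of other methylated tiles is -29.3 points.

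Few resistant tiles were covered in all UHRF1 samples, and coverage in the 4 samples of 96 h alone kept 1080. In these the median difference was -34.6 points, and 1072 (99.3%) had the lower value in KO. Other methylated tiles were close to this, with a median of -29.3 points and 98.1% of 15516 lower in KO. The fit of 4 samples called 219 of the 1080 resistant tiles (20.3%), 14.4% of other methylated tiles and 5.48% of all tiles lower. Among the 114 tiles of the fit of all UHRF1 samples, the largest differences at 96 h among called tiles were at chr8:61616001-61616500, chr7:27120001-27120500 and chr7:134754501-134755000. At chr7:27120001-27120500 the WT samples read 96.0% and 86.9% and the KO samples 44.0% and 38.8% (quasi-binomial adjusted p = 1.19e-07), without overlap. At chr8:61616001-61616500 the KO samples differed from each other (14.7% and 42.9%) but both lay below the WT samples (87.3% and 77.8%, adjusted p = 1.55e-05).

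At 96 h 113 of the 114 tiles had the lower value in KO and 1 the higher. Of other methylated tiles in that fit 97.9% had the lower value. The smallest differences at 96 h among the 114, tiles of chromosome 18 left out, were at 3 tiles with the lower value in KO. There the UHRF1 lines already differed in serum, the KO line being the higher. At chr15:72640001-72640500 the WT samples read 49.3% and 48.5% and the KO samples 43.0% and 47.6%, at chr6:58856501-58857000 the means were 39.3% and 35.4%, and at chr2:174124501-174125000 39.96% and 33.8%. In serum the KO means at these tiles were 69.3%, 57.4% and 61.3%, and the 1 WT sample read 28.0%, 32.2% and 11.4%. At all 3 tiles the KO mean was lower at 96 h than in serum and the WT mean higher, differences that were not tested, and the small gap at 96 h does not show that KO kept its methylation there. At chr15:72640001-72640500 E14 had 94.6% in serum, so the wild-type lines differed there too.

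UHRF1 KO samples did not read lower at 168 h than at 96 h. Their 2 libraries of 168 h had 1 call at 50.4% and 49.4% of positions, and those of 96 h at 26.2% and 24.9%. No other RRBS library was above 30.8%. The KO mean over all tiles of the set also rose, from 3.30% to 4.54%. Whether the libraries account for the rise was not tested. Of the 114 resistant tiles, 80 had the higher value at 168 h and the median difference was 4.17 points, against 8.30 in other methylated tiles. By the quasi-binomial fit none was called higher or lower, 17 (14.9%) were higher at an unadjusted p under 0.05, where 14.7% of all tiles were, 1 was called with no minimum difference, and limma called none. Over all tiles 0.0485% were called higher, 0.163% with no minimum difference and 0% by limma.

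The TET lines showed a gap between the classes in serum. Over the 607 resistant tiles covered in all TET samples the serum means were 81.1% and 81.1% in TET WT and 85.3% and 85.6% in TET TKO. Other methylated tiles stood at 60.1% in TET WT and 80.1% in TET TKO. Tested per tile in serum, 21 resistant tiles (3.46%) were higher and 5 lower in TET TKO. Over all tiles 14% were higher and 0.0686% lower, and of other methylated tiles 42.3% were higher. Without the minimum difference 76 resistant tiles (12.5%) and 32.04% of all tiles were higher. A fit of the serum samples alone called 19 of 1159 resistant tiles (1.64%) and 12.2% of all tiles higher. The median difference was 3.64 points in resistant and 17.7 in other methylated tiles. Among tiles at 90% or more in E14 serum the medians were 3.49 and 9.22 points. The rule used serum levels of wild-type E14, so the gap between classes in serum is not independent of it.

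At 96 h of 2i the order was the opposite at resistant tiles, and at 168 h both TET TKO samples read below the 1 TET WT sample. At 48 h the lines interleaved, with 79.4% and 79.6% in TET WT and 79.8% and 79.3% in TET TKO. TET TKO samples read 70.6% and 70.01% at 96 h and 65.6% and 64.2% at 168 h, and TET WT samples 74.5% and 73.8% at 96 h and 68.8% in the 1 sample of 168 h. The median difference between TKO and WT was -4.25 points at 96 h and -4.54 at 168 h in resistant tiles, and 11.9 and 19.2 in other methylated tiles. Among tiles at 90% or more in E14 serum it was -4.49 and -4.91 in resistant and 1.84 and 9.80 in other methylated tiles. The rule chose tiles by levels of the wild-type line E14. At 96 h TET WT had a mean of 74.2% in resistant and 42.6% in other methylated tiles. The gaps between classes at 96 h and 168 h are thus not independent of the rule. Few tiles were called singly. At 96 h 13 resistant tiles (2.14%) were higher and 24 (3.95%) lower, with 8.86% and 0.224% over all tiles. A fit of the samples of 96 h alone called 2 of 800 resistant tiles lower (0.25%), with 0.0335% over all tiles. For the fit of all TET samples, left-out libraries and limma were read in the higher direction only. The higher count was 3 without the first TET TKO sample, and 8 and 6 without the first and the second TET WT sample. The 168 h calls compare TET TKO with 1 TET WT library, assumed to vary like the other groups, so they have no replicate check on the WT side. In that fit 18 (2.97%) were higher and 28 (4.61%) lower, with 11.8% and 0.163% over all tiles, and 11 were higher without the first TET TKO sample. Limma called 4 higher at each of these times, with 6.82% and 7.30% over all tiles. Fits of the samples compared alone called 1 of 800 resistant tiles higher at 96 h and 0 of 1250 at 168 h, with 1.93% and 0% over all tiles, so the second count says nothing of resistant tiles. At an unadjusted p under 0.05 in these quasi-binomial fits, 41 (5.13%) and 62 (4.96%) were higher, and 25.1% and 22.7% of all tiles. From serum to 168 h in TET TKO, 294 of 607 resistant tiles fell (48.4%), with 26% over all tiles and 92.8% of other methylated ones. Without the minimum difference 512 resistant tiles (84.3%) and 44.03% of all tiles fell. In TET TKO 228 of 633 (36.0%) kept 80% of their serum level at 168 h, against 1.87% of other methylated tiles.

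Single tiles differed between TET TKO and TET WT in both directions at 96 h. The tiles most above TET WT at 96 h were chr17:47522001-47522500, chr2:17019501-17020000 and chr8:126910001-126910500. At the first, TKO samples read 53.0% and 62.5% and WT samples 29.1% and 22.1% (quasi-binomial adjusted p = 0.00288). The tiles most below it were chr13:51010001-51010500, chr5:115405501-115406000 and chr8:69653001-69653500. At chr5:115405501-115406000 TKO samples read 47.9% and 38.1% and WT samples 77.9% and 76.4% (adjusted p = 0.00676). The groups did not overlap at either tile. At chr17:47522001-47522500 the lines already differed in serum, with means of 64.9% in TKO and 25.2% in WT. At chr5:115405501-115406000 the serum means were 69.3% in TKO and 81.5% in WT.

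Resistant tiles covered in all 5 lines numbered 105. The 5 deepest include chr6:59983001-59983500. Its E14 samples read 92.5% and 92.5% in serum and 81.9% and 84.1% at 168 h, on at least 1028 calls each. UHRF1 WT had 95.3% in its serum sample and 77.0% ± 1.09 (SD, n = 2) at 168 h, and UHRF1 KO fell from 91.5% ± 0.899 to 47.3% ± 0.756 at 96 h and stood at 57.9% ± 0.925 at 168 h. TET WT went from 80.5% ± 2.75 to 71.5% in 1 sample, and TET TKO from 86.7% ± 0.435 to 65.7% ± 3.91. At this tile UHRF1 KO alone of the 5 lines was under 60% at 168 h.

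The other deep tiles included chr12:20240001-20240500 and chr12:20239001-20239500 of the run described above. At chr12:20240001-20240500, UHRF1 KO fell from 93.5% ± 0.811 in serum to 56.0% ± 5.68 at 96 h, while UHRF1 WT had 89.1% ± 2.94 at 96 h. At chr12:20239001-20239500 the values at 96 h were 50.4% ± 8.17 and 79.1% ± 5.80. The CpG-dense tile chr11:11926001-11926500 differed from them. UHRF1 WT had 39.8% ± 1.52 and UHRF1 KO 27.8% ± 0.272 at 168 h, and TET WT had 19.3% ± 3.24 already in serum. At chr2:98502501-98503000, which holds the positions of very high depth, UHRF1 KO fell to 29.3% ± 1.496 at 96 h where UHRF1 WT had 70.8% ± 1.70.

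The E14 whole-genome input covered many of the same tiles by another library type, without fragment selection, in long-term 2i where the RRBS course ended at 168 h. Pooled over the resistant tiles with a call (900 to 966 of 1491 per library), 88.1% and 86.8% of calls were methylated in the 2 serum inputs and 69.4% and 70.8% in the 2 inputs of 2i. Other methylated tiles had 74.8% and 72.9% in serum and 34.3% and 34.2% in 2i. Only 130 resistant tiles had 10 or more calls in each of the 4 inputs. Of these, 30 (23.1%) fell by the quasi-binomial fit, and none rose, where of the 126874 tiles of the genome with that depth 69.1% fell and 0.00394% rose, with median differences of -14.7 and -39.7 points. These calls rest on most of the genome changing at once, since in simulated data the fit recovered 0 of 200 tiles when 200 alone were changed. When 1 library was left out, which leaves 1 residual degree of freedom, this fit called 0 tiles of the genome, resistant or not. At an unadjusted p under 0.05, 26 to 40 of the 130 (20% to 30.8%) and 48.2% to 50.1% of all tiles were then lower.

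**Figure D5:**
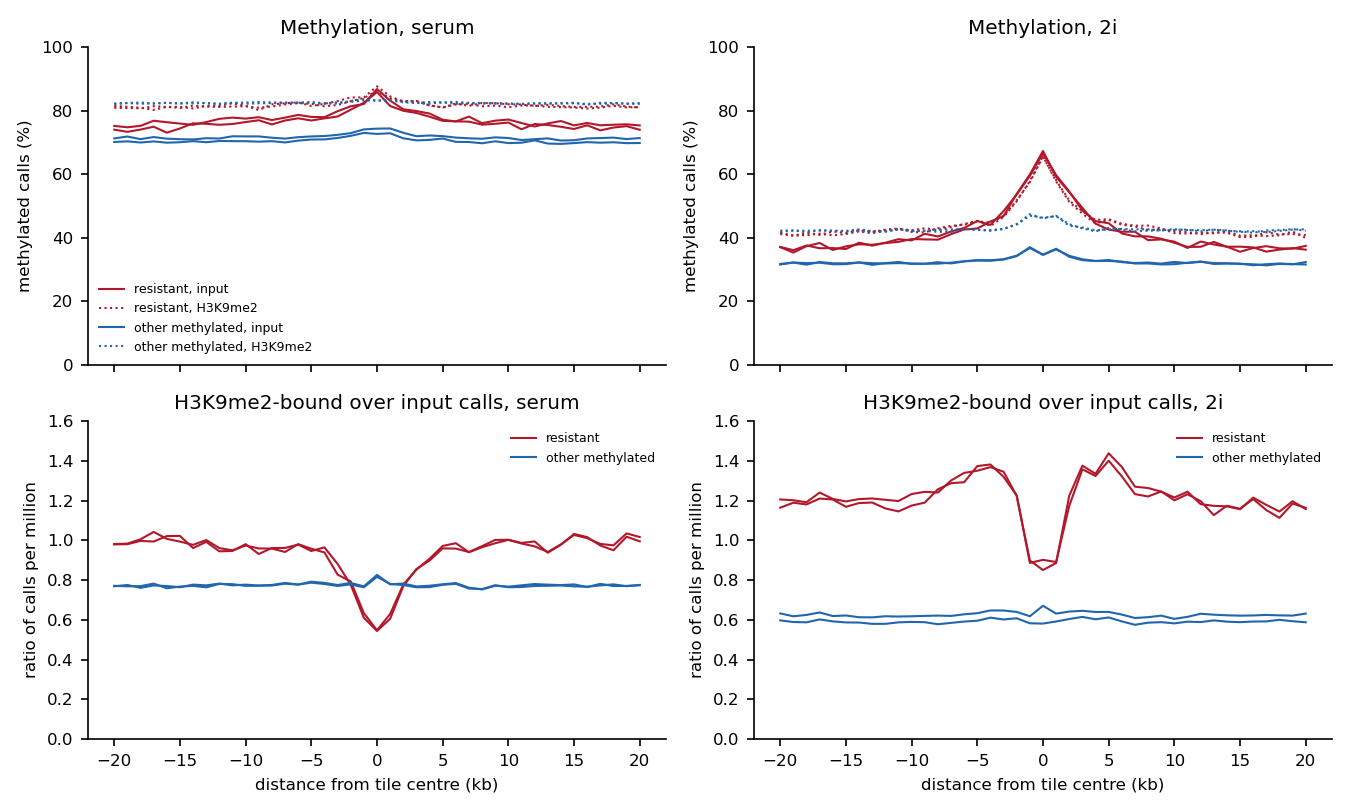
Methylated calls in percent (top) and the ratio of H3K9me2-bound to input calls, scaled to library totals (bottom) in 1 kb bins up to 20 kb from the tile centre, in serum (left) and 2i (right). Red is resistant and blue other methylated tiles, each line is 1 library, and dotted lines are H3K9me2-bound DNA. In 2i methylation rises toward resistant tiles within about 5 kb, and the bound ratio lies above 1 at the sides and under 1 at the centre.

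Methylation in 2i was also higher around resistant tiles than around other methylated tiles, and to a lesser extent so was that in serum. At 1 to 5 kb from resistant tiles the inputs had 79.8% ± 0.583 (SD, n = 2) methylated calls in serum and 51.1% ± 0.278 in 2i, and at 6 to 20 kb 75.9% ± 0.790 and 38.4% ± 0.0368. Around other methylated tiles the inputs had 72.1% ± 0.827 in serum and 34.0% ± 0.00478 in 2i at 1 to 5 kb, and 70.7% ± 0.858 and 32.0% ± 0.0534 at 6 to 20 kb. The 2 replicates thus differed by far less than the classes, which share libraries. Over all autosomal calls the inputs had 74.9% and 73.8% in serum and 37.4% and 37.9% in 2i. These calls include positions with more than 20 calls, which the values by distance leave out. With that difference, the surroundings of resistant tiles at 6 to 20 kb were near the autosomal level, and those of other methylated tiles below it. Resistant tiles that lie near each other count the same bases more than once.

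H3K9me2 was read from the same libraries as bound over input calls, each scaled to the total of its library, positions with more than 20 calls left out. A ratio of 1 is the average of the autosomes. At 1 to 5 kb from resistant tiles it was 0.808 ± 0.00275 in serum and 1.21 ± 0.00763 in 2i, and around other methylated tiles 0.776 ± 0.00335 and 0.620 ± 0.0254. At 6 to 20 kb from resistant tiles it was 0.982 ± 0.00247 in serum and likewise 1.21 ± 0.0158 in 2i. The mean over 1 to 5 kb in 2i joins unlike bins. In the 2 bound libraries the ratio was 0.886 and 0.898 at 1 kb before the centre. It was 1.37 and 1.35 at 5 kb before it and 1.16 and 1.21 at 20 kb. After the centre these ratios were 0.891 and 0.886, 1.40 and 1.44, and 1.16 and 1.16. Serum and 2i thus differed in opposite directions in the 2 classes, as ratios to each medium's own average. In the 1 kb around the centre of resistant tiles the serum ratio was 0.547 and 0.544 in the 2 bound libraries, below that of the flanks. The 2i ratio there was 0.902 and 0.850. Around the centre of other methylated tiles it was 0.816 and 0.826 in serum and 0.671 and 0.581 in 2i. At the centre resistant tiles thus had the lower ratio in serum and the higher in 2i. Library scaling sets only relative values, so these ratios do not show whether the amount of H3K9me2 rose or fell.

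In windows of 10 kb, tested with edgeR's quasi-likelihood test and with calls made at an adjusted p under 0.05 (Benjamini-Hochberg), 1409 windows with a resistant tile were compared with all 236826. In serum 44 (3.12%) were higher in bound than in input DNA and 502 (35.6%) lower, with 9.51% and 18.8% over all windows. In 2i 440 (31.2%) were higher and 220 (15.6%) lower, with 25.1% and 29% over all windows. Of windows with other methylated tiles only, 11.98% were higher and 57.1% lower in 2i. The share higher in 2i was thus close to that of all windows and above that of windows with other methylated tiles. When 1 library was left out, 22.8% to 23.0% of the windows were higher in 2i, with 17.8% to 18.8% over all windows, and 1.77% to 2.06% in serum, with 4.22% to 5.00% over all. In windows of 2 kb, 4.95% were higher in 2i, with 5.24% over all of them.

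Pooled over the tiles that each library covered, methylation within H3K9me2-bound DNA differed from input in opposite directions in the 2 classes in 2i. In 2i the bound libraries had 67.7% and 67.7% methylated calls in resistant tiles, below the 69.4% and 70.8% of the inputs. In other methylated tiles they had 46.1% and 46.0%, above the 34.3% and 34.2% of the inputs. In serum bound and input DNA read 88.6% and 87.5% against 88.1% and 86.8% in resistant tiles, which overlap. The libraries did not cover the same tiles. In 2i the bound libraries had calls in 8001 and 6416 other methylated tiles, and the inputs in 11270 and 10255. In resistant tiles these numbers were 1054 and 948 against 956 and 905. How far coverage accounts for the differences was not tested.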

How the data were processed

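The members and lists were chosen with earlier results of these data known. For RRBS and ChIP-BS the deposited files give, per cytosine position of build NCBIM37, counts of methylated and unmethylated calls and the percent methylated, which the authors made with Bismark (version 0.12.3 in the submitters' processing notes, which also list Trim Galore 0.3.5). The deposited RNA-seq table holds log2 expression values from the authors and was read as levels. A deposited H3K9me2 table on GRCm38 was not used here. A second UHRF1 WT serum library has only 6 positions in its file and entered no fit.

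Levels were computed from the calls, pooled per tile and averaged over replicates. Each set (E14, UHRF1, TET, input) was fitted on all its tiles, with 20 or more calls per sample (10 for input), by a quasi-binomial model with Pearson dispersion moderated by limma 3.58.1 (squeezeVar), F tests and Benjamini-Hochberg adjustment. Windows were tested with edgeR 4.0.16 (TMM, filterByExpr), with DESeq2 1.42.0 as an alternative, in R 4.3.3 and Python 3.11.15. Intervals cover counting error only.

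Tiles were named by rule: the 3 nearest to the threshold on each side, the 3 largest runs, the 5 deepest covered in all 5 lines, those with the most and fewest CpG sites, those with the largest and smallest difference between UHRF1 KO and WT at 96 h, and those most different in TET TKO. Of the 12 runs tied at 3 tiles the shortest was taken, a choice made after the runs were seen. The 4 tiles with positions of very high depth were added after their values were seen, and tiles of chromosome 18 are not named.

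On simulated data, the fit recovered 171 of 200 tiles changed by 35 points in the E14 comparison and 192 to 199 of 200 in the UHRF1 and TET comparisons. For the input, with 2 residual degrees of freedom, 3 simulations of 126874 tiles were run. The first 2 changed 200 tiles, by 35 and by 80 points, and 0 were recovered in either. The third, set up after these had failed, changed 63437 tiles by 40 points, of which 44357 were recovered with 427 false calls, so the input fit is tested only for changes across much of the genome. Of 200 windows changed by 4-fold, 195 were recovered in serum, with 15 false calls, and 193 in 2i, with 10 false calls. Replicate numbers did not pair samples: the correlation of deviations was between -0.031 and 0.046 over pairs of RRBS groups, 0.0042 between the inputs' tile methylation and between -0.017 and 0.0098 for calls per window over pairs of ChIP-BS groups. Replicates differed by more than sampling noise in each group checked, with a mean chi-square per degree of freedom of 1.26 to 2.02 for RRBS, 1.42 and 1.51 for the inputs' methylation and 2.57 to 2.68 for calls per window. Alternatives were other call minimums, thresholds, limma, a replicate block, left-out libraries and other window sizes.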

Additional observations from a re-analysis of the deposited data

Results flagged for a closer look

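Several steps of the mean over resistant tiles went in opposite directions in different lines, in every sample of each line. None of these differences was tested, and the means are over the tiles covered in each set. From 72 to 96 h the mean rose by 2.23 points in E14 and fell by 3.48 in UHRF1 WT and fell by 9.68 in UHRF1 KO, so that the E14 step was 5.71 points above that of UHRF1 WT and 11.9 above that of UHRF1 KO. From 96 to 168 h it rose by 4.45 points in UHRF1 KO and fell by 5.09 in E14, 5.87 in UHRF1 WT and 5.42 in TET TKO. The E14 step minus the UHRF1 KO step was -9.53 points, the UHRF1 WT step minus the UHRF1 KO step -10.3, and the UHRF1 KO step minus the TET TKO step 9.87.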

How the results depend on the processing

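Of 156 alternatives to 17 results, 100 left the value close and 56 moved it, 17 of these among the 66 that left out a library. Close means within 1.5 times for called shares and the number of tiles, within 1 site for the CpG median, and within the 95% binomial interval for the share of neighbours. The cause was not tested. Values below are the percent of resistant tiles called, followed after a slash by the percent of all tiles called in the same fit, unless named otherwise. For TKO against WT they count tiles higher in TKO only.

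With no minimum difference the shares were 9.59 / 38.3 (E14), 51.8 / 21.1 (UHRF1 WT), 0.877 / 0.163 (UHRF1 KO, 96 to 168 h), 13.7 / 17.7 (TET WT), 84.3 / 44.03 (TET TKO, serum to 168 h), 12.5 / 32.04 (TKO against WT in serum), 4.61 / 19.7 (168 h) and 36.2 / 69.8 (input). With the rule met in each 168 h sample alone they were 1.11 / 24.4 (E14) and 0.849 / 8.86 (TKO against WT at 96 h). With 50 or more calls they were 0 / 13.2 (E14), 7.69 / 1.32 (UHRF1 WT), 23.1 / 0.783 (UHRF1 KO against WT at 48 h), 0 / 1.03 (TET WT) and 0 / 2.20 (TKO against WT at 96 h), with 401 resistant tiles left in E14, 13 in the UHRF1 and 85 in the TET lines. The E14 tiles had a median of 18 CpG sites. Limma gave 32.5 / 4.04, 13.2 / 0.203 and 8.77 / 0.0529 for UHRF1 KO against WT at 48, 96 and 168 h, 0.494 / 2.25 for TET WT, and 0.659 / 6.82 for TKO against WT at 96 h and 0.659 / 7.30 at 168 h. In tiles covered in the samples compared only, an alternative chosen after seeing the data, UHRF1 KO against WT gave 0.306 / 0.00661, 20.3 / 5.48 and 0 / 0, TET WT 0 / 0, and TKO against WT 1.64 / 12.2, 0.125 / 1.93 and 0 / 0 in serum, at 96 h and at 168 h. Replicate numbers pair no samples. The replicate block gave 1.32 / 8.16 for TKO against WT at 96 h and 0 / 0 for the input, and changed no other share of resistant tiles by over 1.5 times. Over all tiles it also gave 0.198 in place of 0.317 for UHRF1 KO against WT at 168 h and 0.0176 in place of 0.0485 for UHRF1 KO from 96 to 168 h. Windows of 2 kb gave 0.450 / 0.805 in serum and 4.95 / 5.24 in 2i, the second value over all windows. Where both values are 0, the fit says nothing of resistant tiles. At 70% kept there were 3042 resistant tiles and at 90% 455. E14 RRBS sites gave a median of 5 CpG sites. The resistant share of neighbours was 58.8% within 1 kb and 25.1% within 100 kb.

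Leaving out 1 library gave ranges of 1.14 to 2.48 / 20.1 to 21.8 (E14, lowest without 24 h replicate 1), 16.7 to 20.2 / 8.85 to 9.40 (UHRF1 WT), 0 to 0 / 0.00441 to 0.0308 (UHRF1 KO, 96 to 168 h), 1.48 to 1.98 / 5.44 to 6.31 (TET WT) and 42.7 to 46.8 / 22.4 to 26.02 (TET TKO). For UHRF1 KO against WT they were 36.8 to 48.2 / 5.05 to 6.41, 78.9 to 87.7 / 4.47 to 4.88 and 7.89 to 34.2 / 0.0617 to 0.286 at 48, 96 and 168 h, and for TKO against WT 2.47 to 3.79 / 11.1 to 12.9 in serum, 0.494 to 1.65 / 5.12 to 8.39 at 96 h and 1.81 to 3.13 / 8.07 to 11.5 at 168 h. At 96 h these were 1.32 / 7.18 without TET WT replicate 1, 0.988 / 7.26 without replicate 2 and 0.494 / 5.12 without TET TKO replicate 1, and 1.81 / 8.07 at 168 h without TET TKO replicate 1. The input gave 0 to 0 / 0 to 0, windows 1.77 to 2.06 / 4.22 to 5.00 in serum and 22.8 to 23.0 / 17.8 to 18.8 in 2i, the number of resistant tiles was 1488 to 1611, CpG sites 13 to 14 and the share of neighbours 43.0% to 47.1%.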
